A study of Mus musculus with 12 samples.

Results

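Transcript levels were compared between col1-ACLP+SB and col1-ACLP, that is, between 10T1/2 cells (C3H10T1/2, an established mouse mesenchymal line) on hydrogels carrying type I collagen and the matrix protein ACLP, with and without SB431542. The comparison held every library with either label, 8 of 12 in the series, with 4 of col1-ACLP+SB and 4 of col1-ACLP. Cells of every group were kept in suspension for 1 h and cultured for 18 h on 12 kPa gels with collagen at 0.05 mg/ml. Both groups had ACLP mixed into the collagen at 30 nM, and only col1-ACLP+SB received the inhibitor. The other 4 libraries, col1 without ACLP, entered only 1 alternative fit of all 12. Their levels are given for some genes only, for orientation on the same scale. They do not show how often the inhibitor moved genes toward col1. SB431542 was not given to cells on col1 alone, so an effect of the inhibitor that needs ACLP cannot be told apart from one that does not. The vehicle of the inhibitor is not given in the sources used here, and 1 cell line was studied at 1 time.

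SB431542 blocks the kinase of ALK5 (Tgfbr1), the type I receptor for TGFβ, and also those of the related receptors ALK4 (Acvr1b) and ALK7 (Acvr1c), which serve activins and nodal. On ligand binding, a type II receptor phosphorylates the type I receptor, which then phosphorylates SMAD2 and SMAD3. These join SMAD4 and enter the nucleus, where SMAD3 and SMAD4 recognise the short DNA element CAGAC. In mesenchymal cells the pathway is known for raising collagens, collagen crosslinking enzymes and contractile proteins.

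The 8 libraries held from 29246154 to 52201922 counts each, 15483 of 56748 genes passed a filter on low counts and were tested, and the square root of the common dispersion, roughly the relative spread between replicates, was 0.126. The 8 mesenchymal marker genes were all tested, with summed levels from 34817 to 43037 CPM (counts scaled for library size with TMM factors) on col1-ACLP and from 31897 to 37382 CPM with SB431542, and the summed markers of epithelial, endothelial, leukocyte, adipocyte, skeletal muscle and neural cells were at most 19.5 CPM in any of the 8. Replicate 2 of col1-ACLP+SB stood apart on the first principal component, at 57.7 against -17.3 to -1.6 in the other 7, on 21.7% of the variance. The 10 genes that led this component were 2.88 to 4.61 lower on the log2 scale in that library than in the other 3 of its group, and counts without it are given below. In RNA from whole cultures, fewer cells of a type and less RNA per cell cannot be told apart. Among called genes 52 of 206 shared exonic sequence with another tested gene, and the rule for counting such reads is not given in the sources used here.

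The response to SB431542 was small per gene. Genes of the collagen matrix, of sterol and fatty acid synthesis and of amino acid supply were among those that fell, whereas Sned1, Col18a1 and several long noncoding RNAs were among those that rose. At an adjusted p under 0.05 (the quasi-likelihood test of edgeR, adjusted by Benjamini-Hochberg over all genes tested, which stands behind every adjusted p here), 133 genes were lower with SB431542 and 73 were higher, or 0.859% and 0.471% of the genes tested. The median change was a decrease of 19.1% among the lower genes and an increase of 26.9% among the higher ones. Only 11 lower genes (0.0710%) and 10 higher genes (0.0646%) also passed a log2 fold change of 0.58 in size, while for 10196 genes, 65.9% of those tested, the 95% interval lay wholly inside that bound. All 4 libraries with SB431542 lay below all 4 without it for 696 genes (4.50%) and above them for 608 (3.93%), and 200 of the 206 called genes had groups that did not overlap.

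The number of calls rested on single libraries. It was 163 without replicate 2 of col1-ACLP+SB, 132 without its replicate 1, 236 without its replicate 3 and 77 without its replicate 4, and it was 137, 134, 98 and 91 without replicates 1, 2, 3 and 4 of col1-ACLP. In all 8 fits that left out 1 library, 65 of the 206 genes passed, 46 lower and 19 higher. Scaling by library size alone gave 103 lower and 115 higher genes, although it moved the median of all genes by only 0.02 on the log2 scale.

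**Figure D1:**
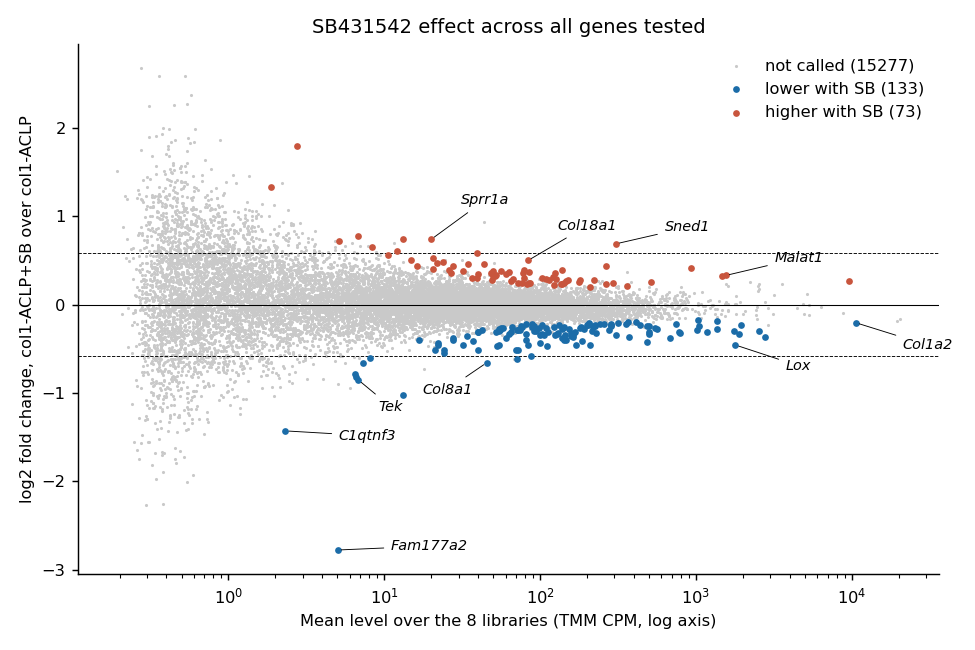
The log2 fold change of each of 15483 genes tested (y axis, col1-ACLP+SB over col1-ACLP) is plotted against its mean level over the 8 libraries (x axis, TMM CPM, log scale). Blue points are the 133 genes called lower, red points the 73 called higher and grey points the rest, with dashed lines at 0.58 in either direction, and 21 called genes lie beyond them.

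The genes of the inhibited pathway were examined first, by role. SB431542 acts on the kinase, so transcript levels do not report whether it was blocked. None of the 13 ligand and latency genes, 8 receptor genes or 13 SMAD and repressor genes tested passed the threshold by edgeR, and their median log2 fold changes were -0.01, 0.08 and -0.06, beside 0.01 over all genes tested. At an unadjusted p under 0.05 there were 4, 1 and 2 of them, beside 2155 of all genes tested. Without replicate 1 of col1-ACLP 1 ligand gene was lower. DESeq2 called 2 ligand genes and no receptor or SMAD gene, and limma-voom called none of the 34.

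Tgfbr1, which encodes ALK5, measured 42.2, 40.1, 44.8 and 43.6 CPM on col1-ACLP and 42.1, 37.9, 38.8 and 39.1 CPM with SB431542. The groups overlapped, and the log2 fold change was -0.11 with a 95% interval from -0.25 to 0.03. Acvr1b, the gene of ALK4, changed by 0.10 (-0.05 to 0.25) and the type II receptor gene Tgfbr2 by -0.08 (-0.17 to 0.01) on the same scale. The other receptor and coreceptor genes, Acvr2a (0.22), Acvr2b (0.05), Tgfbr3 (0.16), Eng (0.08) and the decoy receptor Bambi (0.09), had intervals inside 0.58 in either direction as well. Acvr1c, the gene of ALK7, was listed at 0 counts in all 8 libraries, as was the ligand gene Mstn, and Nodal reached at most 6 counts in a library. A low listing is not read as absence, since Ilk, an adhesion gene most cells use, was also listed at 0 to 9 counts.

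Among ligands, Inhba, the activin A subunit, measured 17.8, 21.2, 23.3 and 26.8 CPM on col1-ACLP and 18.1, 15.3, 16.8 and 13.9 CPM with SB431542. The highest inhibitor library lay above the lowest control, and the log2 fold change of -0.47 (SE 0.12) missed the threshold narrowly, at an adjusted p of 0.051. Tgfb2 ran from 84.8 to 91.5 CPM on col1-ACLP and from 73.7 to 76.7 CPM with the inhibitor, without overlap, with a change of -0.21 on the log2 scale (adjusted p = 0.0581). The log2 fold changes of Tgfb1 (-0.13), Tgfb3 (-0.01), Inhbb (0.02), Gdf11 (0.21), the activin antagonists Fst (-0.06) and Fstl3 (-0.42), the TGFβ docking receptor gene Lrrc32 (-0.11) and the latency proteins Ltbp2 (0.13), Ltbp3 (0.07) and Ltbp4 (0.03) missed it too, and Ltbp1 lay within 0.01 of 0.

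No SMAD gene was called. The log2 fold change was -0.06 for Smad2, -0.04 for Smad3 (-0.14 to 0.07) and -0.07 for Smad4, and it was 0.08, -0.05 and -0.32 for Smad1, Smad5 and Smad9 of the BMP branch. Smad9 was low, at 1.30 to 2.42 CPM on col1-ACLP. The genes of inhibitors that the pathway itself can induce also missed the threshold, with -0.16 for Smad7 (adjusted p = 0.56), -0.21 for Skil (adjusted p = 0.344), -0.06 for Ski, -0.16 for Smad6, -0.15 for Smurf2, -0.03 for Smurf1 and -0.03 for Tgif1. Estimates lay below 0 for 12 of 13 genes in this group, beside 48.3% of all genes tested.

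**Figure D2:**
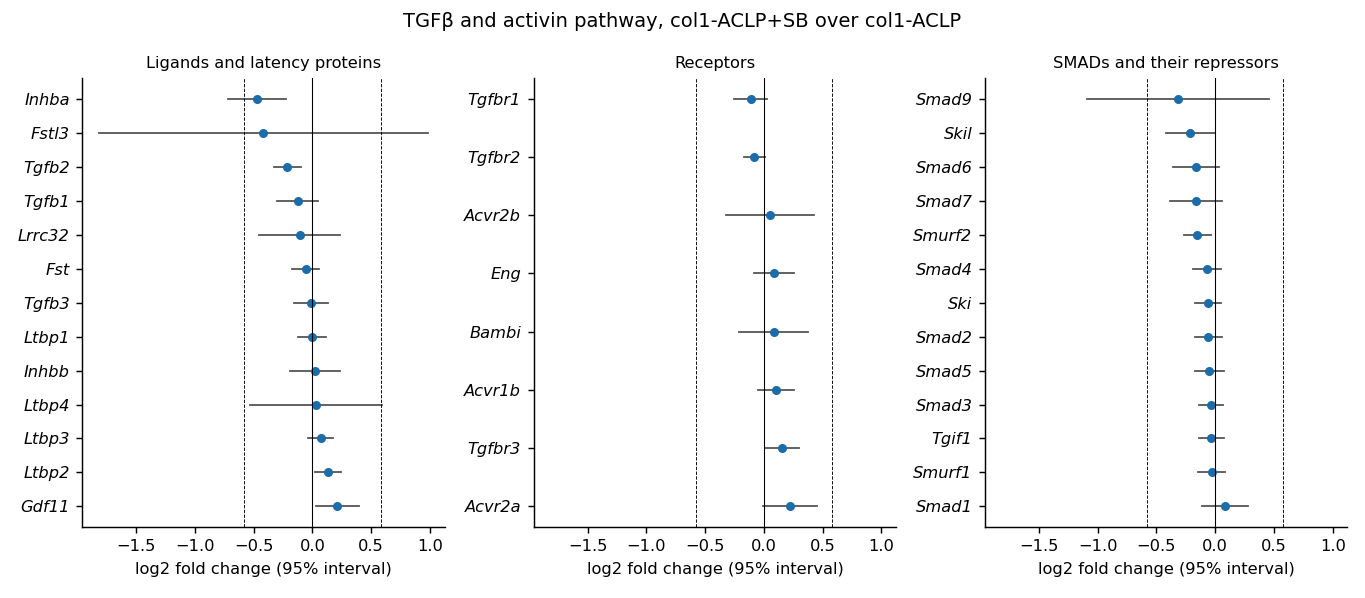
Log2 fold changes (x axis, col1-ACLP+SB over col1-ACLP) with 95% intervals are drawn for the tested ligand and latency genes, receptor genes, and SMAD and repressor genes (y axes). None of the 34 was called, and Inhba, at -0.47, has the lowest estimate of the ligands.

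Of 30 genes listed as targets of TGFβ and SMADs, 2 were lower (6.67%) and none higher, beside 0.859% and 0.471% of all genes tested. The median log2 fold change was -0.01, with 15 of 30 estimates below 0, beside 48.3% of all genes. Pmepa1, which encodes a membrane protein that restrains TGFβ signalling, measured 81.7, 91.8, 88.9 and 106 CPM on col1-ACLP and 69.3, 76.2, 72.2 and 61.7 CPM with SB431542. Every inhibitor library lay below every control, at a log2 fold change of -0.40 (SE 0.08, adjusted p = 0.00965), and the mean on col1 was 25.3 ± 2.38 CPM (SD, n = 4). Postn, the matricellular protein periostin, was the other, at -0.28 (adjusted p = 0.0105). The lower targets numbered 1 without replicate 3 of col1-ACLP and 0 without replicate 4 of col1-ACLP+SB.

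Other listed targets did not pass. Ccn2, connective tissue growth factor, measured 111, 118, 123 and 172 CPM on col1-ACLP and 104, 118, 112 and 87.8 CPM with SB431542, so the difference rested mainly on 1 control library. Its change was -0.31 on the log2 scale (adjusted p = 0.156). Values for Cdkn1a, Klf10 and Tgfbi were 0.01, 0.03 and 0.11 on the log2 scale, and Hey1 stood at 0.06. In the BMP branch 1 of 14 genes passed (7.14% higher, beside 0.471% of all genes), and 1 call is not read as a result about the list. It was Nbl1, the gene of a secreted BMP antagonist, which rose from 73.8 ± 3.05 to 95.4 ± 3.96 CPM (SD, n = 4 each, log2 fold change 0.37, adjusted p = 0.00167). None of its libraries overlapped between the groups.

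Of 23 collagen chain genes tested, 7 were lower and 1 was higher, beside 0.859% and 0.471% of all genes. The median log2 fold change was -0.10 and 17 estimates lay below 0, beside 48.3% of all genes. Col8a1, a short-chain collagen of vessel walls, measured 51.0, 55.4, 54.3 and 61.8 CPM on col1-ACLP and 34.1, 33.6, 39.1 and 34.0 CPM with SB431542. The groups lay well apart, and the log2 fold change was -0.66 (SE 0.08, adjusted p = 0.000129), with a mean on col1 of 5.89 ± 1.08 CPM (SD, n = 4).

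The other lower chains included minor partners of fibrils (types V and XI), a fibril-associated collagen (type XII), the main cartilage collagen (Col2a1) and 1 chain of type I collagen. Col11a1 fell from 2105 ± 141 to 1665 ± 97.5 CPM (-0.34), Col5a2 from 2806 ± 221 to 2277 ± 99.3 CPM (-0.30) and Col12a1 from 711 to 873 CPM down to 523 to 657 CPM (-0.38, as ranges), with log2 fold changes in brackets and SD over 4 libraries where given. Col2a1 (-0.37), Col5a1 (-0.30) and Col1a2 (-0.21, adjusted p = 0.0369) fell as well, with no overlap between groups, although Col1a2 passed in 13 of 19 alternatives and fell short without replicates 1, 3 or 4 of col1-ACLP or 1 or 4 of col1-ACLP+SB. Col1a1, the partner chain of Col1a2, measured 20423, 18389, 20016 and 24237 CPM on col1-ACLP and 17192, 21014, 18232 and 16541 CPM with SB431542. Replicate 2 of the inhibitor group lay above 3 of the 4 controls, and the change of -0.19 missed the threshold (adjusted p = 0.209). Col3a1 (-0.09) and the basement membrane chains Col4a1 (-0.06) and Col4a2 (-0.07) were not called.

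Col18a1, the basement membrane collagen that yields endostatin, went the other way. It measured 71.3, 69.9, 69.9 and 66.1 CPM on col1-ACLP and 92.3, 103, 105 and 91.1 CPM with SB431542, without overlap, at a log2 fold change of 0.50 (SE 0.06, adjusted p = 0.000214), and its mean on col1 was 168 ± 19.4 CPM. It shares 896 bases of exon with Slc19a1 on the other strand, which stood at 0.06. Collagen genes together took 6.24 to 7.28% of counts on col1-ACLP and 5.88 to 6.48% with the inhibitor, an overlap, with an exact two-sided permutation p of 0.0857. Without replicate 1 or replicate 4 of col1-ACLP+SB the lower chains numbered 4, and without its replicate 2 they numbered 8.

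**Figure D3:**
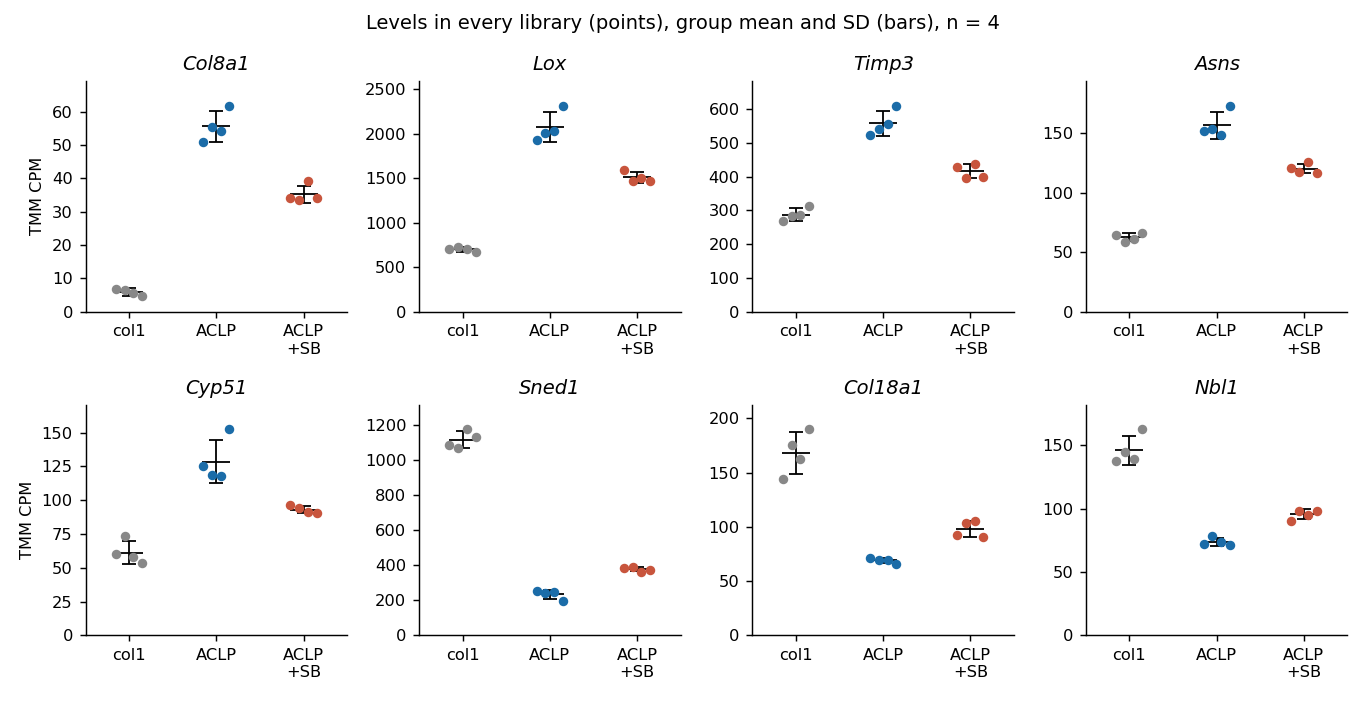
Levels of 8 genes (y axes, TMM CPM from 0) are plotted for every library of col1, col1-ACLP and col1-ACLP+SB, with points for libraries and bars for the mean and SD (n = 4). The inhibitor libraries lie below the col1-ACLP libraries for Col8a1, Lox, Timp3, Asns and Cyp51 and above them for Sned1, Col18a1 and Nbl1.

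Among 25 genes of collagen processing and crosslinking, 3 fell (12%) and 1 rose (4%), beside 0.859% and 0.471% of all genes tested. Lox, lysyl oxidase, which starts collagen and elastin crosslinks, measured 1931, 2014, 2031 and 2317 CPM on col1-ACLP and 1598, 1467, 1504 and 1472 CPM with SB431542. The lowest control lay above the highest inhibitor library, at a log2 fold change of -0.46 (SE 0.05, adjusted p = 0.000129), and the mean on col1 was 700.0 ± 23.0 CPM. Its relative Loxl4 fell by 0.34 and Pcolce2, an enhancer of procollagen C-proteinase, fell by 0.27 on the log2 scale. Lox and Loxl4 passed in all 19 alternatives and Pcolce2 in 11, with its call lost without any 1 of the col1-ACLP libraries or without replicates 3 or 4 of col1-ACLP+SB. Bmp1, that proteinase itself, rose from 472 ± 12.1 to 563 ± 34.5 CPM (0.25, adjusted p = 0.0111), a call lost without replicate 3 of col1-ACLP.

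Of 48 matrix glycoproteins and proteoglycans, 8 fell (16.7%) and 1 rose (2.08%), beside 0.859% and 0.471% of all genes tested. The lower genes were Postn, the microfibril gene Fbn1 (-0.27), the collagen-binding Fmod (-0.29), the elastic fibre gene Fbln5 (-0.18), the large proteoglycan Vcan (-0.23), the hyaluronan link protein Hapln1 (-0.82, at 8.43 ± 1.16 against 4.73 ± 1.57 CPM), Thbs1 and Ccn4. Thbs1, thrombospondin 1, an activator of latent TGFβ, measured 1927, 1957, 2206 and 2301 CPM against 1712, 1705, 1974 and 1739 CPM. Its groups overlapped through replicate 3 of the inhibitor, and it only just passed (-0.23, adjusted p = 0.0487). Thbs1 passed in 11, Fbn1 in 14, Fmod in 13 and Postn in 17 of 19 alternatives, and all 4 fell short without replicate 3 of col1-ACLP or replicate 4 of col1-ACLP+SB. The count of lower genes here was 1 without replicate 3 of col1-ACLP, 2 without its replicate 4, 5 without its replicate 1, 3, 5 and 1 without replicates 1, 2 and 4 of col1-ACLP+SB, and 4 under scaling by library size alone. Fn1 (-0.16, adjusted p = 0.129), Tnc (-0.17, adjusted p = 0.147) and Dcn (0.30, adjusted p = 0.0914) were not called.

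Sned1, a matrix protein with nidogen and fibronectin domains, had the smallest adjusted p of all genes tested. It measured 253, 241, 247 and 197 CPM on col1-ACLP and 386, 389, 363 and 374 CPM with SB431542. The groups were far apart, at a log2 fold change of 0.69 (SE 0.06, adjusted p = 1.0e-05), and the mean on col1 was 1115 ± 47.1 CPM. It shares 1855 exonic bases with Mterf4 on the other strand. Its call held in all 19 alternatives of the same threshold, as did those of Col8a1 and Lox.

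Among 18 matrix proteases and inhibitors, 4 fell (22.2%) and 1 rose (5.56%), beside 0.859% and 0.471% of all genes tested. Timp3, a matrix-bound inhibitor of metalloproteinases, fell from 557 ± 37.5 to 415 ± 20.4 CPM (-0.42, adjusted p = 0.000255), and it shares 1734 exonic bases with Syn3 on the other strand. The aggrecanase genes Adamts5 (-0.33) and Adamts1 (-0.30) and the related Adamts12 (-0.38) fell, whereas Adamts4 rose (0.40, adjusted p = 0.0491), with its lowest inhibitor library at 23.6 CPM beside 23.5 CPM in the highest control. Adamts4 passed in 9 of 19 alternatives and, of those that left out 1 library, only without replicate 1 of col1-ACLP+SB, and Adamts1 passed in 12, falling short without replicates 3 or 4 of col1-ACLP or 1 or 4 of col1-ACLP+SB. Mmp14 stood at 0.15 (adjusted p = 0.149).

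Promoters were read for these genes because SMAD3 and SMAD4 bind CAGAC. Sequences of 250 bases before the start were taken from RefSeq on GRCm38.p6 for 10442 of the 15483 genes tested, among them 4 of the lower collagen chains (Col8a1, Col1a2, Col11a1, Col5a1), and 2 of these are shown with Sned1, which rose. Capitals mark CAGAC or its reverse complement.

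Col8a1 (chr16:57754738-57754987, minus strand): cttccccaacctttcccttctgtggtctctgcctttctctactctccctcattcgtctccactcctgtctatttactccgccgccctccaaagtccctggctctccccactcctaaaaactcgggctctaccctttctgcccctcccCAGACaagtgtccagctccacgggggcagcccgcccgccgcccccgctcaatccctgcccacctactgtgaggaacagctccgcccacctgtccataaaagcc
Col1a2 (chr6:4505368-4505617, plus strand): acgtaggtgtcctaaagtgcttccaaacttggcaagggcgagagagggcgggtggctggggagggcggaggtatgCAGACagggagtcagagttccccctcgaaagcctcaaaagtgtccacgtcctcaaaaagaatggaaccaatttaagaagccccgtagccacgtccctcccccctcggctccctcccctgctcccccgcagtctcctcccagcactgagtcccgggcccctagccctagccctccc
Sned1 (chr1:93235647-93235896, plus strand): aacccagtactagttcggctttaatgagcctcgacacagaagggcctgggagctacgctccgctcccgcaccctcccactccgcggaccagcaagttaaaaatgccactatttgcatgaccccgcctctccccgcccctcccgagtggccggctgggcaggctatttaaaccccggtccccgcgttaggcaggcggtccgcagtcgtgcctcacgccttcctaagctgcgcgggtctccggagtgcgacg

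CAGAC on either strand was in 4 of 4 promoters of lower collagen chains, 3 of 6 of lower glycoproteins, 1 of 6 of lower ATF4 genes, 2 of 4 of lower synthetases and 1 of 4 of lower sterol and fatty acid genes, and Sned1 held none. Over all promoters, 40.67% held it, as did 42.86% of those of the lower genes (39 of 91) and 41.82% of those of the higher genes (23 of 55), so called genes as a group were near the background. The 8-base palindrome GTCTAGAC, which contains GTCT and AGAC but not CAGAC, was in 0.182% of all promoters and in none of the called ones. Other motifs searched on both strands were TTTGAA, in 10.67% of all, 8.791% of lower and 7.273% of higher genes, the AP-1 site TGANTCA (4.3%, 6.593% and 3.636%), the TEAD site GGAATG (10.6%, 9.89% and 5.455%) and the E2F site TTTGGCGC (0.8428%, 1.099% and 1.818%). These letter matches are descriptions and do not mark bound sites.

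Of 30 smooth muscle and SRF target genes, 1 fell and 1 rose (3.33% each), beside 0.859% and 0.471% of all genes tested. The median log2 fold change was 0.01, and 1 call in a direction is not read as a result about the list. Acta2, smooth muscle actin, measured 1048, 1075, 1095 and 1299 CPM on col1-ACLP and 970.1, 1002, 935 and 910.4 CPM with SB431542. The groups did not overlap, and the change of -0.24 (adjusted p = 0.0398) was lost in 7 of 19 alternatives, among them those without replicates 3 or 4 of col1-ACLP and 1, 3 or 4 of col1-ACLP+SB, and its largest adjusted p over all alternatives was 0.134. Tpm2, a tropomyosin, rose from 68.1 ± 3.35 to 89.1 ± 6.91 CPM (0.39, adjusted p = 0.0036). Myl9 (0.15), Myl12a (-0.09), Myh9 (-0.11) and Mrtfa, the actin-sensing SRF cofactor (0.01), were not called.

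Of 33 integrin and focal adhesion genes, 3 fell (9.09%) and none rose, beside 0.859% and 0.471% of all genes tested. Itga6, a laminin receptor chain, measured 89.9, 91.9, 89.3 and 90.0 CPM on col1-ACLP and 75.4, 63.3, 77.8 and 69.7 CPM with SB431542, without overlap (-0.33, adjusted p = 0.00956). Cav1, the caveolar coat protein, fell from 61.8 ± 8.30 to 44.5 ± 3.75 CPM (-0.47, adjusted p = 0.00704), and Lims1, a partner of integrin-linked kinase, fell by 0.21. Itga6 and Cav1 passed in all 19 alternatives, and Lims1 in 9 and in none of the 8 that left out 1 library. Cav2 (-0.28, adjusted p = 0.0858), the integrin genes Itgav (-0.21), Itgb1 (-0.09), Itga11 (-0.45, at under 4 CPM), Itga5 (0.06) and Itgb5 (-0.01), and the linker genes Actn1 (-0.16), Actn4 (-0.04) and Crk (-0.11) did not pass. The same held for the small GTPases and their partners, with -0.12 for Rhoa, -0.03 for Rac1, -0.09 for Cdc42, -0.16 for Iqgap1, -0.06 for Dock1, -0.14 for Pak3, -0.23 for Pak4 and -0.03 for Limk2. Among 29 YAP and TEAD genes, 1 fell (3.45%, beside 0.859% of all genes), and 1 call is not read as a result about the list. It was Ccdc80 (-0.40, adjusted p = 0.00286), a secreted matrix-associated protein.

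Of 34 genes of sterol and fatty acid synthesis tested, 12 fell (35.3%) and none rose, beside 0.859% and 0.471% of all genes tested. Estimates lay below 0 for 33 (97.1%), beside 48.3% of all genes, and the median log2 fold change was -0.25. Cyp51, which demethylates lanosterol, measured 126, 119, 118 and 152 CPM on col1-ACLP and 96.6, 93.9, 91.4 and 90.3 CPM with SB431542. The groups were apart, at -0.47 (SE 0.07, adjusted p = 0.00137), with 1253 exonic bases shared with Akap9 on the other strand. Sqle, squalene epoxidase, ran from 167 to 205 CPM on col1-ACLP and fell to 127 to 156 CPM (-0.37, adjusted p = 0.00724), and the sterol oxidase gene Msmo1 fell by 0.34 on the log2 scale. On the fatty acid side Scd2 (-0.31), Scd1 (-0.25), Fads1 (-0.22), Fads2 (-0.25) and Acaca (-0.28) fell, as did the sterol carrier Stard4 (-0.27).

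The regulators of these enzymes did not pass. Srebf2 stood at -0.17 (adjusted p = 0.209), Srebf1 at -0.04 and Insig1, which holds SREBP in the endoplasmic reticulum, at 0.03. The 12 became 5 without replicate 4 of col1-ACLP, which had the highest level of Cyp51 and Sqle, and 4 and 8 without replicates 4 and 2 of col1-ACLP+SB.

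Of 41 genes of the ATF4 response, 8 were lower (19.5%) and none higher, beside 0.859% and 0.471% of all genes tested. Estimates lay below 0 for 35 (85.4%), beside 48.3% of all genes, with a median of -0.17. Asns, asparagine synthetase, measured 152, 154, 149 and 173 CPM on col1-ACLP and 121, 118, 126 and 117 CPM with SB431542, without overlap (-0.38, SE 0.06, adjusted p = 0.00122), and its mean on col1 was 62.5 ± 3.36 CPM. The serine and one-carbon genes Psat1 (-0.30), Shmt2 (-0.32), Mthfd2 (-0.46) and Aldh1l2 (-0.32), the transporters Slc7a1 (-0.34) and Slc7a5 (-0.32) and the tRNA exporter Xpot (-0.26) made up the rest. Atf4 itself ran from 365 to 409 CPM and from 328 to 356 CPM, without overlap, but missed the threshold (-0.17, adjusted p = 0.0989), as did Trib3 (-0.32, adjusted p = 0.0847) and Chac1 (-0.20). Without replicate 4 of col1-ACLP+SB the lower genes of this list numbered 5, and without its replicate 2 they numbered 11.

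Of 20 cytosolic aminoacyl-tRNA synthetase genes, which charge tRNAs with amino acids, 6 fell (30%) and none rose, beside 0.859% and 0.471% of all genes. Estimates lay below 0 for 18 (90%), beside 48.3% of all genes, with a list median of -0.16. Gars fell from 209.8 ± 12.0 to 173 ± 6.08 CPM (-0.28, adjusted p = 0.00956), and Mars1 (-0.25), Iars (-0.27), Nars (-0.24), Lars (-0.26) and Eprs (-0.23) also passed. This count was 3 and 1 without replicates 3 and 4 of col1-ACLP and 8, 2 and 0 without replicates 2, 3 and 4 of col1-ACLP+SB. The promoter of Asns is shown because ATF4 is known to act there, with capitals marking TGATGNAA, 23 bases before the start.

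Asns (chr6:7693210-7693459, minus strand): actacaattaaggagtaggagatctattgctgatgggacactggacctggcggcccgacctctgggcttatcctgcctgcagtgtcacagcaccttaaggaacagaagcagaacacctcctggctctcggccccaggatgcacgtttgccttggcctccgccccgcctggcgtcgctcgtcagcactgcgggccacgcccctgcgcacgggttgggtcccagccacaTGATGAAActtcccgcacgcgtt

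Gars held the same motif, which was in 2.021% of all promoters, 2.198% of those of the lower genes (2 of 91) and 5.455% of those of the higher genes (3 of 55).

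**Figure D4:**
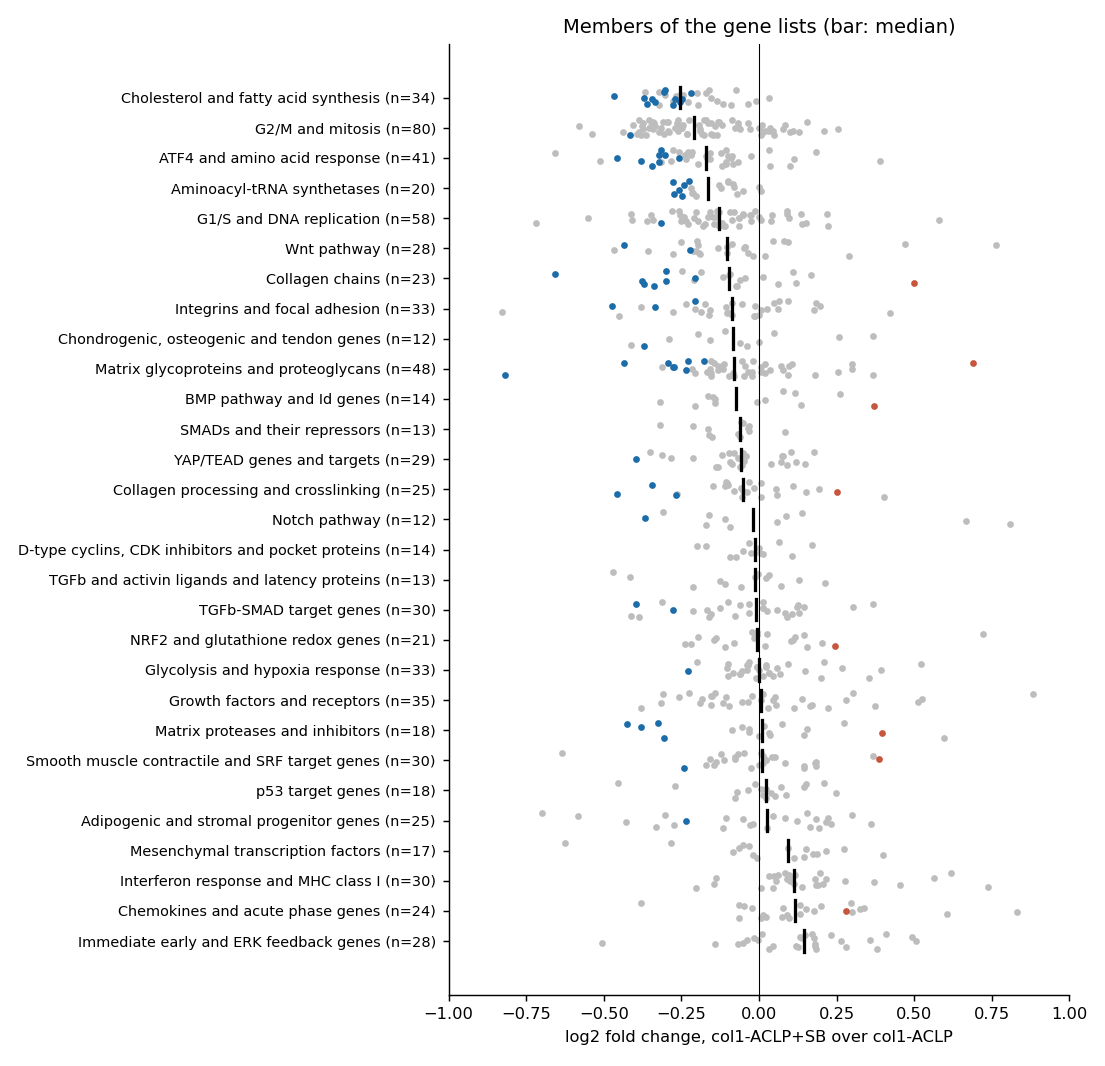
Each point is a tested gene of 1 of the 29 lists with at least 12 tested members (y axis), at its log2 fold change (x axis, col1-ACLP+SB over col1-ACLP), blue where called lower, red where called higher and grey otherwise, with a black bar at the median of the list. The 7 members beyond 1 in size are not drawn, and the lowest median, -0.25, belongs to cholesterol and fatty acid synthesis.

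Of 80 genes of G2 and mitosis 1 fell, Anln, a scaffold of the cytokinetic ring (42.5 ± 2.70 to 31.8 ± 3.15 CPM, -0.41, adjusted p = 0.0105), and 64 estimates lay below 0, with a median of -0.21, beside 0.859% of all genes lower and 48.3% of all estimates below 0. The lower genes of this list numbered 2 without replicate 4 of col1-ACLP and 3 without replicate 3 of col1-ACLP+SB. Of 58 genes of G1/S and DNA replication 1 fell, Mcm4, a helicase subunit (-0.31, adjusted p = 0.0326), and 45 lay below 0, with a median of -0.13. Mcm4 passed in 11 of 19 alternatives and fell short without any 1 of the col1-ACLP libraries or without replicates 2 or 4 of col1-ACLP+SB. None of 14 cyclin and CDK inhibitor genes or 18 p53 targets passed by edgeR, with Ccnd1 at -0.09 and Cdkn1a at 0.01. An unadjusted p under 0.05 was seen for 1 and 2 of them, beside 2155 of all 15483 genes tested, and DESeq2 called 1 p53 target higher.

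The Wnt list had 2 of 28 lower (7.14%, beside 0.859% of all genes). These were Ccn4 (115 ± 12.3 to 84.7 ± 8.87 CPM, -0.43, adjusted p = 0.0061), a Wnt-induced matricellular protein, and the R-spondin receptor gene Lgr4 (-0.22). The lower Wnt genes numbered 1 without replicates 3 or 4 of col1-ACLP or 1 or 4 of col1-ACLP+SB. Jag1, a Notch ligand, fell from 417 ± 40.2 to 323 ± 25.2 CPM (-0.37, adjusted p = 0.0061), the only call among 12 Notch genes. Of 25 adipogenic and stromal progenitor genes 1 fell, Ly6a (-0.24, from 215 ± 5.30 to 183 ± 13.8 CPM, with a mean on col1 of 214 ± 12.8 CPM). Of 12 chondrogenic, osteogenic and tendon genes 1 fell, Col2a1. Single calls also came from 33 glycolysis and hypoxia genes (Ero1a, -0.23), 21 NRF2 genes (Gstm1, 0.25) and 24 chemokine and acute phase genes (Cxcl1, 0.28, from 136 ± 13.9 to 165 ± 8.91 CPM). They made up 3.03%, 4.76% and 4.17% of these lists, beside 0.859% of all genes lower and 0.471% higher. In lists this short 1 call is a large share, so it is not read as a result about the list. These single calls were less firm than that of Jag1, which passed in all 19 alternatives, since Ero1a passed in 11, Ly6a in 10, Cxcl1 in 13, Gstm1 in 15 and Col2a1 in 14 of 19. Each of the 5 lost its call without replicate 4 of col1-ACLP+SB, and all but Col2a1 also without replicate 4 of col1-ACLP.

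The lists for complement (11 tested), interferon response (30), AhR targets (5), mesenchymal transcription factors (17), immediate early genes (28), growth factors and their receptors (35) and DNA methyltransferases and TET enzymes (7) had no call by edgeR. In that order 4, 7, 2, 6, 7, 10 and 2 of them had an unadjusted p under 0.05, beside 2155 of all 15483 genes tested. Of these lists limma-voom called none, and DESeq2 called 1, 0, 1, 1, 1, 2 and 2. There were 2 higher immediate early genes without replicate 1 of col1-ACLP+SB, a growth factor gene was lower without its replicate 3, and a DNA methyltransferase or TET gene was higher without replicate 4 of col1-ACLP. Medians were 0.11 for interferon genes, with 3 of 30 estimates below 0, and 0.14 for immediate early genes, with 7 of 28 below 0. Over all genes tested the median was 0.01, with 48.3% of estimates below 0. Genes the study names that also missed the threshold were the progenitor genes Pdgfra (0.16), Ebf1 (0.12) and Gfra1 (0.36), with Akap12 (0.19), Pdk4 (0.05) and Angpt1 (0.22). Aebp1, the gene of ACLP itself, stood at -0.10 (adjusted p = 0.485).

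The largest fold changes belonged mostly to genes at low levels. Among lower genes, C1qtnf3, a secreted C1q family protein, measured 3.36, 3.97, 2.28 and 3.97 CPM against 1.58, 0.801, 1.44 and 1.18 CPM, without overlap (-1.43, adjusted p = 0.0166). Tek, the angiopoietin receptor, fell from 8.79 ± 1.02 to 4.87 ± 0.917 CPM (-0.85), with a mean on col1 of 6.41 ± 1.44 CPM. The other endothelial markers together stayed at or under 0.395 CPM in all 8 libraries. Pclaf, a PCNA-binding protein (-0.79), the cadherin Cdh10 (-0.66), Tnfrsf11b, osteoprotegerin (86.6 ± 8.60 to 56.5 ± 8.14 CPM, -0.62), and Anxa8 (105 ± 14.2 to 70.0 ± 7.59 CPM, -0.58) also passed the fold threshold. Fam177a2 had the lowest estimate, -2.78, but its controls ran from 1.54 to 15.8 CPM, beside 1.02 to 1.53 CPM with the inhibitor, and how reads that map to several places were counted is not given in the sources used here. Higher genes past the fold threshold were Zfp969 (1.33), the cornified envelope gene Sprr1a (11.0 to 19.4 CPM against 20.1 to 33.2 CPM, 0.74), the centromere gene Cenpl (0.73), Sned1 and the imprinted antisense RNA Airn (0.59). Calls of the low genes depended on single libraries, as Cenpl passed in 7 of 19 alternatives and in none of the 8 that left out 1 library, Zfp969 in 10, Pclaf and Hapln1 in 9, Cdh10 in 12, C1qtnf3 in 14 and Sprr1a in 15 of 19. Tek, Tnfrsf11b and Anxa8 passed in all 19, and Airn in the 18 that tested it.

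Long noncoding RNAs made up 12 of the 73 higher genes and 1 of the 133 lower ones, beside 10.0% of all genes tested, and 979 of 1550 (63.2%) had an estimate above 0, beside 49.9% of protein-coding genes. Neat1, the scaffold of paraspeckles, measured 803, 803, 802 and 765 CPM on col1-ACLP and 1065, 1191, 948 and 1022 CPM with SB431542, without overlap (0.41, SE 0.06, adjusted p = 0.000479). Malat1, a speckle RNA, rose by 0.33, Xist, which coats the inactive X chromosome, by 0.32, Firre by 0.36 and Mir100hg by 0.24 (adjusted p = 0.0498).

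The share of counts on long noncoding RNA genes was 0.855 to 0.921% on col1-ACLP, 0.983 to 1.11% with SB431542 and 0.999 to 1.09% on col1. The first 2 ranges did not overlap, with an exact two-sided permutation p of 0.0286, the smallest that 4 against 4 libraries allow. Without Malat1, Neat1 and Xist the share was 0.520 to 0.554% on col1-ACLP and 0.564 to 0.617% with SB431542 (exact permutation p = 0.0286). The difference of group means was then 0.0533 percentage points, in place of 0.154. Genes of the annotation class TEC did not overlap either, at 0.0707 to 0.0784% and 0.0829 to 0.0985% (exact permutation p = 0.0286). These p-values are not adjusted for the several classes examined. Mitochondrial genes took 2.00 to 2.21% of counts on col1-ACLP and 2.10 to 2.88% with the inhibitor (exact permutation p = 0.0857). Estimates lay above 0 for 15 of 16, beside 48.3% below 0 among all genes tested. There was 1 call, mt-Co1 (0.26, adjusted p = 0.0438), beside 0.471% of all genes called higher. The part of the mitochondrial share in the result for long noncoding RNA was not tested.

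**Figure D5:**
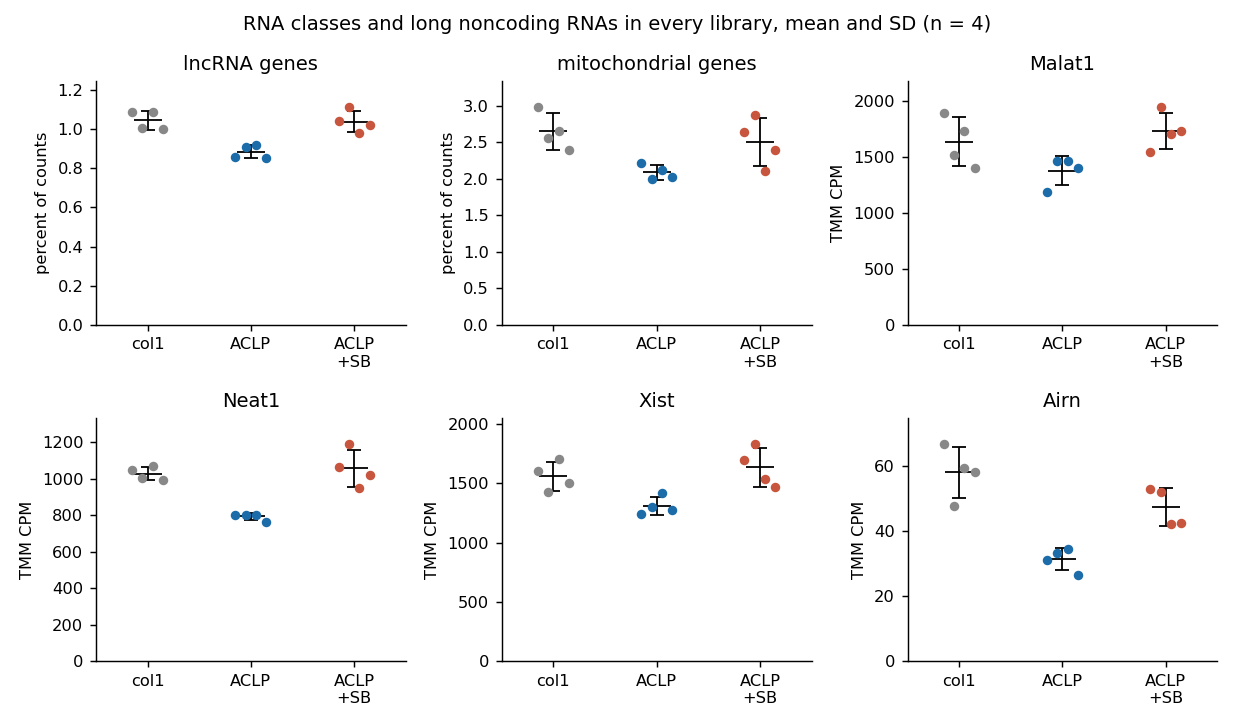
The share of counts on long noncoding RNA genes and on mitochondrial genes (y axes, percent of counts) and the levels of Malat1, Neat1, Xist and Airn (y axes, TMM CPM) are plotted for every library of col1, col1-ACLP and col1-ACLP+SB, with the mean and SD (n = 4). Every inhibitor library lies above every col1-ACLP library for the long noncoding share, while the mitochondrial shares overlap.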

How the data were processed

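RNA of 12 libraries of 10T1/2 cells (4 per group) was sequenced as paired-end reads. The authors mapped the reads with HISAT2 and deposited raw counts per gene, without normalization, for 56748 genes. The build is mm10 in the submitters' processing notes and GRCm39 in the study's methods, and of 56017 identifiers shared with GENCODE vM39, 55980 overlapped that annotation on GRCm39. The counting tool and its strand setting are not given in the sources used here, so genes that share exons are named as such.

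Counts of the 8 libraries with ACLP entered edgeR 4.0.16 under R 4.3.3 (filterByExpr, TMM factors, glmQLFit and glmQLFTest on group alone), with p-values adjusted over all genes tested by Benjamini-Hochberg. A gene was called at an adjusted p under 0.05, and past the fold threshold where the log2 fold change also exceeded 0.58 in size. The standard error is the log2 fold change divided by the root of F, and a prior count of 2 was used for the log2 CPM of the principal components. The col1 libraries were scaled alongside and entered only the alternative fit of all 12. The comparisons of either group with col1 would share these libraries, and none was made. Totals were 29246154 to 36322113 counts on col1-ACLP and 29995224 to 52201922 with SB431542. The labels call the 4 libraries of a group replicates, and p-values measure the spread between them. Pairs of replicates differed beyond sampling noise (chi-square per degree of freedom 7.43 to 20.3). Precision from the counts covers counting error only, since no molecular identifiers were stated.

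Members and gene lists (33 lists and 7 marker lists, written from general knowledge) were chosen with earlier results of these data known. Named genes were the tested ligand, receptor and SMAD genes, the genes past the fold threshold in each direction with at least 1 CPM, up to 4 called members of each list in each direction, the genes the study names, and the markers. Other genes were chosen after their values were seen. Predicted genes without a symbol are counted only. Alternatives were RLE factors, library size alone, no filter, a mean of at least 10 counts, all 12 libraries, a replicate block, DESeq2 1.42.0, limma-voom (limma 3.58.1), glmTreat and each library left out. Protein-coding genes alone, robust empirical Bayes and offsets for GC and length were added after the data were seen. The test was tried on simulated counts. Results for some genes are not reported here.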

Additional observations from a re-analysis of the deposited data

Results flagged for a closer look

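Among 280 groups of 4 libraries looked at for the named genes, 17 had 1 library whose gap to its nearest neighbour was past Dixon's 95% critical value for its share of the group's range. Chance gives about 1 in 20 such groups.

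In col1-ACLP+SB, replicate 3 was high for Thbs1, at 1974 CPM beside 1705 to 1739 CPM in the others, for Postn, at 565 beside 486 to 492 CPM, and for Col8a1, at 39.1 beside 33.6 to 34.1 CPM. Replicate 2 of that group, which stood apart on the first principal component, was low for Itgav (220.4 beside 267 to 274 CPM), Cav2 (41.8 beside 52.4 to 53.7 CPM) and Anln (27.2 beside 32.8 to 33.8 CPM) and high for Bmp1 (614 beside 540.3 to 550.3 CPM). Replicate 1 was high for Tnfrsf11b, at 68.6 beside 51.5 to 54.1 CPM, and for Ltbp1, at 72.9 beside 70.0 to 70.5 CPM.

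In col1-ACLP, replicate 4 was high for Col2a1 (3845 beside 2845 to 2949 CPM), Anxa8 (126 beside 95.5 to 99.7 CPM), Ccdc80 (193 beside 157 to 160.1 CPM) and Gars (228 beside 203 to 205 CPM) and low for Bambi (7.73 beside 9.41 CPM in the next lowest). Replicate 1 was high for Itga11, at 3.60 beside 1.89 to 2.18 CPM, replicate 2 was low for Tek, at 7.28 beside 9.19 to 9.49 CPM, and replicate 3 was high for Smad9, at 2.42 beside 1.30 to 1.42 CPM. Without replicate 4 of col1-ACLP the genes called numbered 91 in place of 206.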

How the results depend on the processing

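None of the 69 named genes called reversed its direction in the 19 alternatives that test for any change, and 32 of them passed 0.05 in each of these that tested them. Genes not called could change sign, such as Hey1 (-0.30 to 0.28) and Fstl3 (-0.78 to 0.13). Of the counts by adjusted p alone, 206 in all with 133 lower and 73 higher, those without a filter were 465, 260 and 205, with a replicate block 99, 64 and 35, and by DESeq2 455, 280 and 175. Library size alone gave 115 higher genes, and offsets for GC and length gave 318 in all and 131 higher. Leaving out 1 library gave 77 to 236 in all, 51 to 132 lower and 26 to 104 higher.

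With the fold threshold added, 21 in all with 11 lower and 10 higher, the counts were 62, 22 and 40 without a filter and 11, 6 and 5 with limma-voom. With a replicate block they were 12 in all and 5 lower, by DESeq2 38 in all and 22 higher, and with library size alone and with all 12 libraries 7 lower each. Protein-coding genes alone left 5 higher. The glmTreat test of a change beyond the fold threshold called 0 genes (0 lower and 0 higher), and 105 at an unadjusted p under 0.05. Leaving out 1 library gave 10 to 25 in all, 4 to 14 lower and 5 to 15 higher. The cause of these shifts was not tested.

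Over all genes tested, libraries with the same replicate number did not deviate together. The correlation of their deviations ran from -0.05 to 0.02, and 2 of 4 libraries of col1-ACLP correlated best with the inhibitor library of their own number. A pairing limited to some genes was not tested. With the block, 29 of the 69 named calls were lost, and the lower collagen chains numbered 4, glycoproteins 2, synthetases 1 and sterol and fatty acid genes 7. At 4 libraries a group and a relative spread of 0.126, changes well under the median size of the calls may be missed, and depth limits genes of few counts.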

Other observations

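Genes in this section were chosen after their values were seen. Papss2, which makes the activated sulfate donor, measured 189.6, 198, 199 and 206 CPM on col1-ACLP and 153, 133, 144 and 147 CPM with SB431542. Slc26a2, the sulfate transporter that feeds it, measured 222, 236, 255 and 259 CPM against 181, 164, 192 and 169 CPM. Neither gene's groups overlapped, and both had a log2 fold change of -0.46, with adjusted p-values of 0.000138 and 0.000367 by edgeR. Means on col1 were 94.8 ± 5.48 CPM for Papss2 and 111 ± 2.02 CPM for Slc26a2 (SD, n = 4).

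The cGMP phosphodiesterase gene Pde5a fell from 96.4 ± 7.06 to 70.1 ± 3.06 CPM and the secreted kinase family gene Gask1b from 82.1 ± 6.30 to 57.5 ± 1.77 CPM. The corepressor gene Tle2 rose from 224 ± 6.28 to 302 ± 23.7 CPM and the cartilage matrix gene Ucma from 37.0 ± 3.75 to 50.8 ± 1.63 CPM. Ralgds, an activator of Ral GTPases, rose from 109 ± 3.10 to 140.4 ± 12.2 CPM. Groups of 4 libraries did not overlap for any of these 5 genes. Mgp, a matrix inhibitor of calcification, rose from 54.9 ± 5.67 to 71.1 ± 9.30 CPM (0.37, adjusted p = 0.0348 by edgeR), with groups that overlapped in 1 library.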
